A study of Mus musculus with 8 samples.

Results

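Endothelial cells line the sinusoids and larger vessels of the liver, and 10 of their genes were followed here in livers labelled as knockouts of the m6A writer subunit METTL14 and in their controls. The members were taken by symbol: Stab1, Stab2, Lyve1 and Clec4g, which mark the sinusoidal lining, and Kdr, Pecam1, Cdh5, Eng, Tek and Vwf, which are shared with other vessels. All 10 were found among the 16133 genes of the authors' deposited comparison, and all 10 were tested and had counts that could be recovered per library. Liver sinusoidal endothelial cells are fenestrated, lack an organised basement membrane, and clear waste macromolecules from blood through scavenger receptors. They keep hepatocytes supplied with Wnt and BMP signals and answer VEGF made by hepatocytes. The albumin gene, whose symbol is Alb, is a hepatocyte gene, and its promoter is widely used to delete genes in hepatocytes and not in vessels. The labels write the knockout as METTL14Alb without spelling out the driver.

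The mice carried either METTL14f/f alone (WT) or METTL14Alb (KO), and every mouse in both groups had been injected with tunicamycin, an inhibitor of N-glycosylation that stresses the endoplasmic reticulum, at 2 mg/kg for 24 hours. Untreated mice were not analysed here, so a response to the drug itself cannot be read from these values. Poly(A) RNA was sequenced as input and after precipitation with an antibody to m6A (IP), with 2 libraries for each genotype and library type, and the labels give neither the age of the mice nor whether the libraries came from separate animals, so the p-values measure the spread between these libraries only. Estimated totals of the input libraries lay between 12316899 and 16814204 reads, and the replicate number behind each recovered library is unknown, so the letters in WT A, WT B, KO A and KO B carry no order. IP depth is unknown here.

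No header names the numerator of the deposited fold change, and the peak lists, in which abundant mRNAs are called more readily, were used to take it as KO relative to WT. Genes counted 100 times or more on average were used: 347 had a log2 change above 2, of which 156 carried peaks solely in KO and 0 solely in WT, while among 403 below -2 these numbers were 30 and 46. The mRNA of Mettl14 itself had a log2 change of -0.50 ± 0.41 (SE) in the authors' deposited table (DESeq2, adjusted p = 0.342), and its 4 libraries stood at 64.6 and 62.0 (KO) and 79.8 and 99.7 (WT) after normalization. With total-count scaling its log2 change turned to 0.32 (limma, adjusted p = 0.306), so the level of Mettl14 mRNA did not settle the knockout label, and KO refers throughout to the libraries labelled so. Which cells the remaining Mettl14 mRNA came from was not measured. Among hepatocyte genes, albumin (Alb) had a mean normalized count of 349244, which fits the liver label.

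At the authors' size factors few of the 10 endothelial genes were called between KO and WT liver, the exceptions being Clec4g in the deposited test and Lyve1 and Clec4g in limma. The authors' deposited table called 1 member lower in KO, 0 higher and the other 9 neither (DESeq2, adjusted p under 0.05), where 42.5% of all 14257 tested genes were called, 20.4% upward and 22.2% downward. At an unadjusted p under 0.05 there were 1 higher and 1 lower member, and limma on the recovered counts called the same pair, Lyve1 and Clec4g, where it called 49.3% of all genes. At an unadjusted p under 0.05 limma held 3 members and 7937 of 14074 genes. The median log2 change of the members was 0.14, against 0.046 over all tested genes, and their median absolute log2 change was 0.29, against 0.71. Leaving Lyve1 aside, the largest difference of any member was 1.46-fold. Among the 7203 tested genes with mean counts in the range of the members, from 105 to 1153, the share called was 47.5% and the median absolute log2 change 0.58.

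The precision of these estimates can be stated as an interval. The 95% interval of the change lay wholly within 2-fold either way for 7 of the 10 members, against 28.4% of all tested genes and 43.6% of those in the same range of mean counts. The 3 whose interval reached beyond 2-fold were Lyve1, Pecam1 and Clec4g. In whole-tissue RNA a change in the number of endothelial cells cannot be told apart from a change in RNA per cell.

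**Figure D1:**
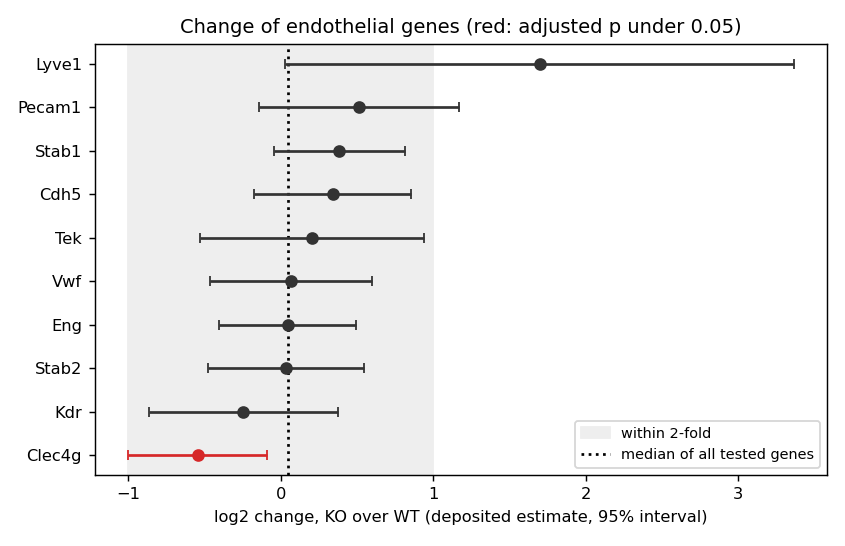
The log2 change of each of the 10 endothelial genes, KO over WT, as deposited, with 95% intervals from the deposited SE; the shaded band is 2-fold either way and the dotted line the median of all tested genes. Clec4g, in red, is the one member past an adjusted p of 0.05 (its sign turns with total-count scaling), and Lyve1 at 1.70 has the widest interval.

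The scavenger receptors of the sinusoid are taken first. Stab1 and Stab2 encode the stabilins, large receptors that take up hyaluronan, modified lipoproteins and other waste from blood. Normalized counts of Stab2 (chromosome 10, 86841194 to 87008038, mm10) were 665 (WT A) and 469 (WT B), with 681 (KO A) and 484 (KO B) in the knockout. The genotypes overlapped nearly point for point, and the spread within each genotype was far larger than the difference between them. The log2 change of Stab2 was 0.04 ± 0.26 (SE, n = 2 libraries per genotype) in the authors' deposited table (DESeq2, adjusted p = 0.927), with an interval from 0.720-fold to 1.46-fold.

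Stab1 (chromosome 14, 31139017 to 31168651) had normalized counts of 768 and 978 in KO and 697 and 641 in WT. Both KO libraries lay above both WT libraries, by a small margin for KO A. Its log2 change of 0.38 ± 0.22 (SE) in the authors' deposited table did not pass the test (DESeq2, adjusted p = 0.150). Stab1 is also made by liver macrophages. Their list of 14 markers summed to 8648 and 7405 normalized counts in KO and 8483 and 7579 in WT, with no marker at 0. Of these sums, Cd68 alone made up 2023 and 2665 in KO against 168 and 207 in WT. Every other marker of the list had a negative deposited log2 change, and the median of the list was -0.36. The part of macrophages in the value of Stab1 was not tested.

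Lyve1, a hyaluronan receptor of sinusoidal and lymphatic endothelium that some macrophages share, was the most variable member. It stood at 162 (WT A) and 53.9 (WT B) normalized counts in WT and at 237 (KO A) and 463 (KO B) in the knockout. The genotypes did not overlap, but KO B was 1.95 times KO A and WT A was 3.002 times WT B. The deposited log2 estimate of 1.70 ± 0.85 (SE) had an interval from 0.028 to 3.37 and was not called in the authors' deposited table (DESeq2, adjusted p = 0.0959). Limma on the recovered counts did call Lyve1 (log2 change 1.82, adjusted p = 0.0221), and across the alternative limma fits the adjusted p ran from 1.52e-04 to 0.344. Without WT B that log2 change was 1.03 and without WT A it was 2.60, so the size of the difference rested on which WT library was kept. Of the markers of lymphatic vessels, Pdpn had 7.97 and 6.80 normalized counts in KO and 0 in both WT libraries. Its KO values stood for 10 and 8 reads. Deposited log2 changes were 0.72 for Reln, -0.34 for Nr2f2, -0.49 for Prox1, -0.69 for Mmrn1 and -2.22 for the untested Ccl21a. The 5 tested lymphatic markers summed to 1913 and 1602 in KO and 1650 and 1580 in WT. Most of each sum came from Reln and Prox1, and Reln is also made by stellate cells. Reln had 1140 and 889 in KO and 714 and 516 in WT, and Prox1 496 and 477, and 557 and 811. Mmrn1 had 5.58 and 3.40 in KO and 6.47 and 8.08 in WT, so Pdpn and Mmrn1 added little. The part of lymphatic vessels in the value of Lyve1 was not tested.

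Clec4g, the lectin LSECtin of sinusoidal endothelium, was the single member called lower at the authors' size factors (chromosome 8, 3707066 to 3720695). Normalized counts of Clec4g were 465 and 370 in KO and 644 and 575 in WT, so both KO libraries lay below both WT libraries. WT was 1.46-fold above KO, a log2 change of -0.54 ± 0.23 (SE) in the authors' deposited table (DESeq2, adjusted p = 0.0464). The call was close to the threshold. In limma at the same size factors its adjusted p was 0.0248 and dropping a library gave 0.0971 (KO A dropped), 0.185 (KO B dropped), 0.05002 (WT A dropped) or 0.0138 (WT B dropped); with a KO library dropped limma called 0 of 14074 genes. Scaled to equal totals, the log2 change of Clec4g turned to 0.27 (limma, adjusted p = 0.188), beside a median of 0.87 over all genes in that fit.

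The sequence before the start of Clec4g is shown with those of 3 members that were not called, one of the sinusoid and a pair shared by all vessels, to let their promoters be compared. RefSeq sequences (GRCm38.p6) were at hand for 6 of the 10 members: Clec4g, Stab1, Stab2, Kdr, Eng and Tek. Capitals mark AGGAAG, a sequence bound by ETS factors, which are regulators of endothelial genes, and TATAAA, the TATA box. Each was searched on both strands in the 250 bases before the start of the RefSeq promoter entry. That start can lie inside the annotated gene span. The Kdr window lies wholly inside its span, those of Clec4g, Stab1, Stab2 and Tek overlap theirs in part, and that of Eng lies wholly before it.
Clec4g (chr8:3720652-3720901, minus strand): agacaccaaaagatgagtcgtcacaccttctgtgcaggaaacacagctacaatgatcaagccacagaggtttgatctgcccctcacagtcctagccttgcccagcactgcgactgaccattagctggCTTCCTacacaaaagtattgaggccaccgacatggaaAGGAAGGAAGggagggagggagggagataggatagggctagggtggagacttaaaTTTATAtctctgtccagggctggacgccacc
Stab2 (chr10:87007943-87008192, minus strand): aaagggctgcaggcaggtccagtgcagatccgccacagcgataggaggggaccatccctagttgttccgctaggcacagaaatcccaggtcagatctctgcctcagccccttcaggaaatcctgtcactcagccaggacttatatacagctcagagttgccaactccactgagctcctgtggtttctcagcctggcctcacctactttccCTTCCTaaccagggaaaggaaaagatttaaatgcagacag
Eng (chr2:32646345-32646594, plus strand): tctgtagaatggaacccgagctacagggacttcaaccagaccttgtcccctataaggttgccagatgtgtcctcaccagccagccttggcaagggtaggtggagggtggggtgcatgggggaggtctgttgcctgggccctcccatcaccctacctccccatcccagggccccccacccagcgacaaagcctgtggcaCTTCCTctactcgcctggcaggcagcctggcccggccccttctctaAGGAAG
Kdr (chr5:75978456-75978705, minus strand): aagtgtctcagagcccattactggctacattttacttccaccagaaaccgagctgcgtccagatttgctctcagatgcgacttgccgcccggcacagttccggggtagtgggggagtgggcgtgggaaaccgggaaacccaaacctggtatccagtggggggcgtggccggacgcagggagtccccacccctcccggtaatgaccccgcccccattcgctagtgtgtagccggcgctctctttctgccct
AGGAAG or its reverse complement stood in 4 of the 6 windows (Clec4g, Stab1, Stab2 and Eng) and in 29.5% of all 32851 RefSeq windows of this length. TATAAA or its reverse complement stood in 1 of the 6, that of Clec4g, and in 12.4% of all windows. In Clec4g it was the reverse complement, TTTATA, that stood on the strand shown. AGATAA, bound by GATA factors such as the sinusoidal regulator GATA4, was on either strand in 0 of the 6 and in 9.99% of all windows. A match here is a run of letters and was not tested as a binding site. ETS letters stood before the gene called lower as well as before genes that were not called.

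Of the members, 3 are receptors for vascular growth factors (Kdr, Tek and Eng), and none of them was called in the deposited test. Kdr, the main signalling receptor for VEGF-A (chromosome 5, 75932827 to 75979072), had normalized counts of 224 and 141 in KO and 225 and 207 in WT. KO B was the low library, while KO A was level with WT. The log2 change of Kdr was -0.25 ± 0.32 (SE) in the authors' deposited table (DESeq2, adjusted p = 0.571), and it turned to 0.54 with total-count scaling (limma, adjusted p = 0.0964).

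Tek encodes TIE2, the receptor for angiopoietins (chromosome 4, 94739086 to 94874976), and was the least counted member. It had normalized counts of 132 and 91.8 in KO and 100 and 94.3 in WT, with the KO libraries on either side of the WT pair. Eng encodes endoglin, a co-receptor for BMP9 and TGF-beta (chromosome 2, 32646595 to 32682669), and was the member with the highest count, at 1260 and 1084 in KO and 1346 and 921 in WT. Both KO values of Eng lay between the 2 WT values. The log2 changes of Tek and Eng were 0.20 ± 0.38 and 0.05 ± 0.23 (SE) in the authors' deposited table (DESeq2, adjusted p = 0.707 and 0.893), and the interval of Eng ran from 0.757-fold to 1.41-fold. With total-count scaling limma gave Tek 0.99 and Eng 0.89 (adjusted p = 0.0128 and 0.00593), both then called higher.

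Junction and haemostasis genes of the vessel wall completed the set. Cdh5, the VE-cadherin of endothelial junctions (chromosome 8, 104101613 to 104144504), had normalized counts of 375 and 320 in KO and 306 and 241 in WT. Both KO libraries lay above both WT libraries, with KO B close to WT A, and the log2 change of 0.34 ± 0.26 (SE) was not called in the authors' deposited table (DESeq2, adjusted p = 0.307). In limma the log2 change of Cdh5 was 0.52 without WT A and 0.18 without WT B. Pecam1, the junction molecule CD31 (chromosome 11, 106654213 to 106715281), had 308 and 227 in KO and 243 and 131 in WT, with overlap and a low WT B. The authors' deposited table gave Pecam1 a log2 change of 0.51 ± 0.33 (SE) (DESeq2, adjusted p = 0.217). In limma it was 0.12 without WT B against 1.01 without WT A. Vwf, the platelet-tethering von Willebrand factor (chromosome 6, 125552948 to 125686679), had 278.9 and 280.4 in KO, both between the WT values of 306 and 226. The authors' deposited table put its log2 change at 0.07 ± 0.27 (SE) (DESeq2, adjusted p = 0.871). Megakaryocytes and platelets also hold Vwf and Pecam1. Their 5 tested markers summed to 360 and 367 normalized counts in KO and 398 and 263 in WT, the largest part being Itgb3 (239 and 271, and 211 and 140). Deposited log2 changes were 0.53 for Itgb3, 0.45 for Ppbp, -0.07 for Itga2b, -1.19 for Gp1bb and -1.24 for Pf4, with 0 of the 5 called. Limma at the authors' size factors did call Gp1bb lower (adjusted p = 0.0221). The untested platelet glycoprotein genes Gp1ba and Gp9 had means of 1.88 and 1.91. The part of these cells in the values of Vwf and Pecam1 was not tested.

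**Figure D2:**
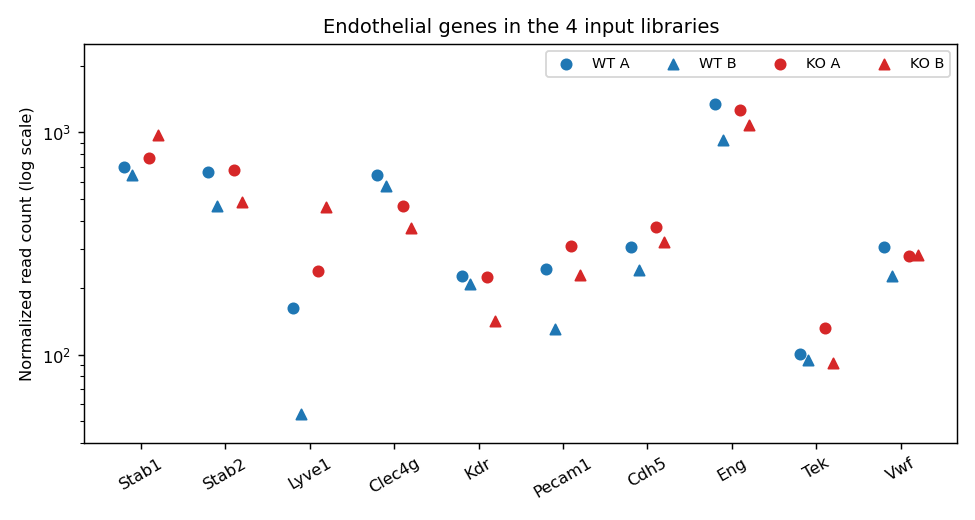
Normalized read counts (log scale) of the 10 endothelial genes in the 4 input libraries; blue symbols are WT, red symbols KO, and circles and triangles are libraries A and B of a genotype, which have no order. The genotypes overlap for 6 genes; Lyve1 has the widest spread, from 53.9 in WT B to 463 in KO B, and every gene is higher in WT A than in WT B.

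Across the set, the genotypes overlapped for 6 of the 10 members, KO lay above WT for 3 (Stab1, Lyve1 and Cdh5) and below it for 1 (Clec4g). Among recovered tested genes with mean counts in the same range the libraries of KO and WT did not overlap for 80.6%, and over all of them for 76.9%. The members also shared a difference between libraries of one genotype. All 10 were higher in WT A than in WT B, with a median ratio of 1.31, where 49.7% of all recovered tested genes were higher in WT A and the median ratio was 0.999. In KO 7 of the 10 were higher in KO A, with a median ratio of 1.21 against 0.986 over all genes; the exceptions were Stab1, Lyve1 and Vwf. Of 42 further endothelial genes, described next, 33 were higher in WT A than in WT B and 35 in KO A than in KO B, with median ratios of 1.33 and 1.24. The pattern was not limited to endothelial genes. Of 11 stellate cell and fibroblast genes 9 were higher in WT A and 10 in KO A, with median ratios of 1.24 and 1.27. Of 14 Kupffer cell and macrophage genes 9 were higher in WT A and 12 in KO A (1.17 and 1.37), and of 5 platelet genes 5 and 3 (1.51 and 1.40). Of 7 bile duct genes 4 were higher in WT A and 6 in KO A (median ratio in KO 1.35), while 3 hepatocyte genes with recovered counts had median ratios of 0.875 and 0.899. The source of this spread was not tested.

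Few other endothelial genes were called at the authors' size factors. Of 15 other tested genes of sinusoidal endothelium 1 rose, 1 fell and 13 were not called, with a median log2 change of 0.00090. With total-count scaling limma called 10 of the 15 higher and 0 lower, with a median of 0.83 against 0.87 over all genes. Flt4, the VEGF-C receptor VEGFR3, went up from 188 and 129 (WT) to 441 and 314 (KO), a log2 change of 1.25 ± 0.30 (SE) per the authors' deposited table (DESeq2, adjusted p = 1.70e-04). F8, coagulation factor VIII, which the sinusoidal lining secretes, fell by 0.95 ± 0.30 (log2, SE) per the authors' deposited table (DESeq2, adjusted p = 0.00513), from 268 and 213 in WT to 126 and 123 in KO. In limma F8 stood at -0.93, and at -0.12 with total-count scaling.

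Of 27 further genes shared by endothelium of all vessels 4 rose, 0 fell and 23 were not called, with 0 lower at an unadjusted p under 0.05 and 0 lower in limma, and a median log2 change of -0.00092. With total-count scaling limma called 18 of the 27 higher and 0 lower, with a median of 0.83. Nos3, the endothelial nitric oxide synthase, had normalized counts of 210 and 220 in KO and 78.7 and 48.5 in WT. Cd34, a sialomucin that is sparse on sinusoids and found on other vessels, had 8.63 and 14.8 in WT, where KO had 60.6 and 54.4. Ecscr, a membrane protein of endothelial cells, had 142 and 74.8 in KO against 29.1 and 32.3 in WT. The log2 changes of Nos3, Cd34 and Ecscr were 1.75 ± 0.36, 2.31 ± 0.64 and 1.82 ± 0.49 (SE) in the authors' deposited table (DESeq2, adjusted p = 5.72e-06, 0.00121 and 7.60e-04). The fourth, Ets1, an ETS transcription factor named after its values were seen, stood at 0.72 (DESeq2, adjusted p = 0.0464, the authors' deposited table), and limma did not call it (adjusted p = 0.0517). Both lists together held 6 called genes among 42 (14.3%).

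**Figure D3:**
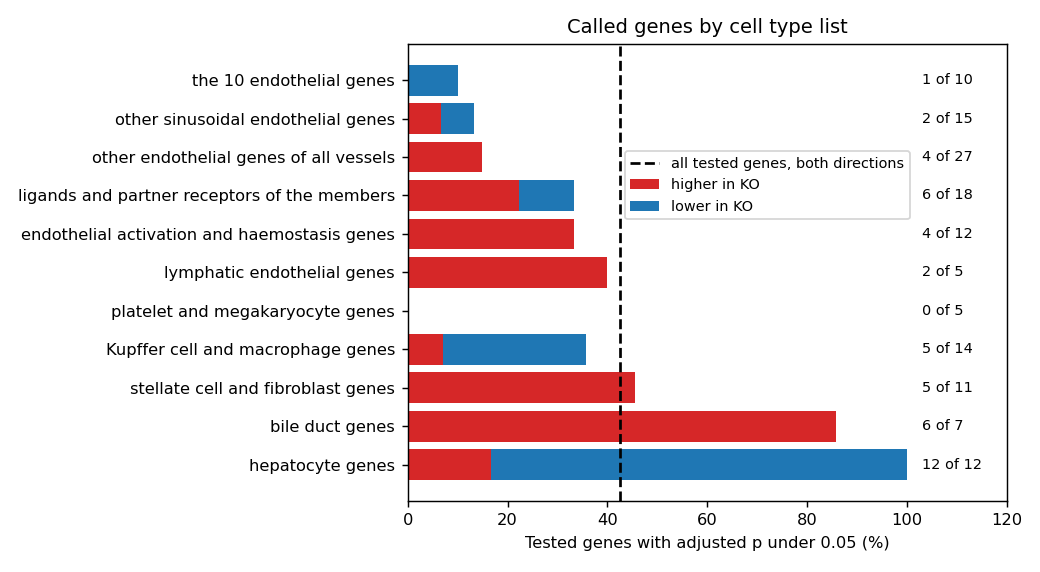
Share of tested genes with a deposited adjusted p under 0.05, higher in KO in red and lower in blue, for the 10 endothelial genes and 10 other lists; the numbers at the right are called and tested genes, and the dashed line is the 42.5% called among all tested genes. The 3 lists at the top, of endothelial genes, lie at 10% to 14.8%, and that of hepatocyte genes at 100%.

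Ligands and partner receptors of the members came next. Of 18 tested genes 4 rose, 2 fell and 12 were not called, a share called of 33.3% against 42.5% of all tested genes, with a median log2 change of 0.31. Vegfb and Vegfc, ligands of the VEGF receptors, had normalized counts of 143 and 138 and of 138 and 108 in KO, against 29.1 and 32.3 and 34.5 and 31.0 in WT. Their log2 changes were 2.20 ± 0.42 and 1.91 ± 0.44 (SE) in the authors' deposited table (DESeq2, adjusted p = 1.13e-06 and 6.22e-05). Tgfbr2, the type II receptor for TGF-beta, rose 3.21-fold there (SE 0.24 on the log2 scale; DESeq2, adjusted p = 1.15e-11, the authors' deposited table). Nrp1, a co-receptor of KDR, had 536 and 460 in KO and 709 and 1386 in WT, a log2 change of -1.07 ± 0.28 (SE) in the authors' deposited table (DESeq2, adjusted p = 6.85e-04; -0.18 with total-count scaling). Jup, plakoglobin, which binds cadherins, fell by 0.52 (log2) per the authors' deposited table (DESeq2, adjusted p = 0.0265), and its value turned to 0.30 with total-count scaling. The growth factor Hgf, the fourth that rose and named after its values were seen, stood at 0.98 (DESeq2, adjusted p = 0.00564, the authors' deposited table). All of these genes are also expressed outside the endothelium, and their cell of origin was not tested.

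Genes of endothelial activation and haemostasis gave 4 rises, 0 falls and 8 genes not called among 12 tested. The share called was 33.3%, under the 42.5% of all tested genes. There were 0 lower at an unadjusted p under 0.05 and in limma. Plat, tissue plasminogen activator, was counted at 341 and 291 (normalized, KO) against 8.63 and 2.69 (WT), the latter a few reads each. Thbd, thrombomodulin, had 634 and 533 in KO against 179 and 109 in WT, and Vcam1, an adhesion molecule for leukocytes, 563 and 553 against 239 and 162. The log2 changes of Plat, Thbd and Vcam1 were 5.74 ± 0.55, 2.01 ± 0.28 and 1.47 ± 0.26 (SE) in the authors' deposited table (DESeq2, adjusted p = 1.36e-23, 2.14e-11 and 1.98e-07). None of these 3 genes is restricted to endothelium.

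Markers of the other cells of the liver give the setting. Of all tested genes 42.5% were called. The share was 100% for hepatocyte genes, 85.7% for bile duct genes and 45.5% for stellate cell and fibroblast genes. It was 35.7% for Kupffer cell and macrophage genes, 40% for lymphatic genes and 0% for platelet genes. Of 12 hepatocyte genes 2 rose and 10 fell, with a median log2 change of -2.001. In the authors' deposited table Pck1, the entry enzyme of gluconeogenesis, stood at -3.77, Serpina1c at -3.56 and the asialoglycoprotein receptor gene Asgr1 at -2.89, while Apoa1 and Cyp3a11 stood at 0.64 and 0.46. Of 7 bile duct genes 6 rose and 0 fell (0 also at an unadjusted p under 0.05 and in limma), with a median of 3.59 and values of 2.24 for Spp1, 3.59 for Krt19 and 3.65 for Tspan8 in the authors' deposited table. Of 11 stellate cell and fibroblast genes 5 rose and 0 fell (1 lower at an unadjusted p under 0.05, 0 in limma), with a median of 0.60 and values of 4.08 for Col1a1, 4.02 for Col3a1 and 3.67 for Acta2 in the authors' deposited table. Of 14 Kupffer cell and macrophage genes 1 rose and 4 fell, among them Clec4f at -1.39, Fcna at -0.84 and Cd163 at -0.95 in the authors' deposited table, while the lysosomal Cd68 stood at 3.65. With total-count scaling Clec4f, Fcna and Cd163 stood at -0.61, -0.04 and -0.11. Of 5 tested lymphatic genes 2 rose, Pdpn and Reln, and of 5 platelet genes 0 were called (1 lower at an unadjusted p under 0.05 and 1 lower in limma), with Itgb3 at 0.53 and Itga2b at -0.07 in the authors' deposited table. The part of these cell types in the values of the members was not tested.

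All directions above hold relative to the authors' size factors. When every library was scaled to one total, the median log2 change over all 14074 genes moved from 0.066 to 0.87 in limma, and 66.2% of them were called, 58.7% upward. The members moved with that shift, to a median of 0.95, and 8 of 10 were then called higher.

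The share of members with an m6A peak was near that of other genes in the WT list and, for their range of counts, in the KO list. The WT list held 4 peaks in 3 members (Eng, Kdr and Clec4g) and the KO list 20 peaks in 7 members (those 3 with Cdh5, Lyve1, Pecam1 and Vwf). Stab1, Stab2 and Tek had a peak in neither list. Of all tested genes 21.0% had a peak in the WT list and 41.1% in the KO list, and in the range of mean counts of the members 22.5% and 55.5%. The KO list was 2.20 times as long as the WT list, with 12290 and 5586 peaks. There is 1 list per genotype, so no peak has a replicate check, and the enrichments below are the authors' values for each peak. Positions are in mm10, counted from 1, with an uncertainty of 1 base.

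In Eng both lists held peaks close to the 3' end of the gene, where m6A is commonly found. The WT list had 1 peak at 32681629 to 32681677 (82.6-fold enriched over input) and 1 at 32681877 to 32682024 (182-fold). A single KO peak at 32681530 to 32682074 covered both (74.0-fold), and 3 shorter KO peaks followed between it and the gene end, at 32682224 to 32682421 (23.2-fold), 32682472 to 32682520 (49.9-fold) and 32682571 to 32682619 (14.3-fold). Another KO peak lay at 32646695 to 32646842, with its near edge 100 bases inside the gene start (15.2-fold). The level of Eng mRNA was not called, as given above.

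Kdr had the same arrangement. Its WT peak at 75934064 to 75934112 (107-fold) lay inside a KO peak at 75934014 to 75934211 that carried the highest enrichment of any member, 285-fold, and 3 more KO peaks flanked it. They lay at 75933568 to 75933616 (70.0-fold), 75934262 to 75934409 (78.8-fold) and 75934510 to 75934558 (30.5-fold), so that all Kdr peaks had near edges 741 to 1683 bases from the gene end. In Eng and Kdr the 3 WT peaks were thus each contained in a KO peak.

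Clec4g had a peak in each list, at different places. The WT peak spanned 3716516 to 3717201 in 2 blocks with 49 bases covered (4.29-fold). The KO peak spanned 3718797 to 3720651 in 3 blocks with 197 bases covered (7.91-fold) and ended at the first transcribed base of the RefSeq promoter entry, 44 bases inside the start of the annotated gene span. The first 30 transcribed bases under that peak are shown because they are the only peak sequence of a member that the RefSeq windows reach, with GAACA, a spelling of the m6A consensus, in capitals.
Clec4g (chr8:3720622-3720651, minus strand): accaccatGAACActggtgaatacaacaag
GGAC, the commoner core of the m6A consensus, was searched first on the sense strand of the first 50 transcribed bases. It stood in 1 of the 6 members with a window (Kdr, and not Clec4g) and in 18.9% of all 32851 windows. GAACA was then picked by reading the Clec4g sequence itself, so its presence there is fixed by the choice; it stood in 1 of the 6 and in 4.59% of all windows. The place of m6A within the peak was not resolved.

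The other members had peaks in the KO list alone. Cdh5 had 5, of which 4 lay between 351 and 1596 bases from the gene end by their near edges, with enrichments from 5.75-fold to 31.8-fold, and 1 had 2 blocks, the first near the gene start (104101726 to 104112970, 13.4-fold). The 4 near the end of Cdh5 lay at 104142611 to 104142908, 104142959 to 104143207, 104143308 to 104143755 and 104144006 to 104144153. Lyve1 (chromosome 7, 110850607 to 110862953) had 3, at 110851641 to 110851836 (8.93-fold), 110851936 to 110852082 (4.96-fold) and 110852132 to 110852180 (10.7-fold). They lay between 1034 and 1525 bases from the gene end, and its recovered counts in the WT input were 150 and 40 reads against 298 and 545 in KO. Pecam1 had 1 at 106688923 to 106688971 (12.6-fold) and Vwf 1 at 125643051 to 125643099 (62.5-fold), each of 49 bases and far inside the gene. Of the 20 KO peaks 15 lay within 2000 bases of the gene end, in 4 genes (Cdh5, Eng, Kdr and Lyve1). The part of read depth in the absence of WT peaks was not tested.

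**Figure D4:**
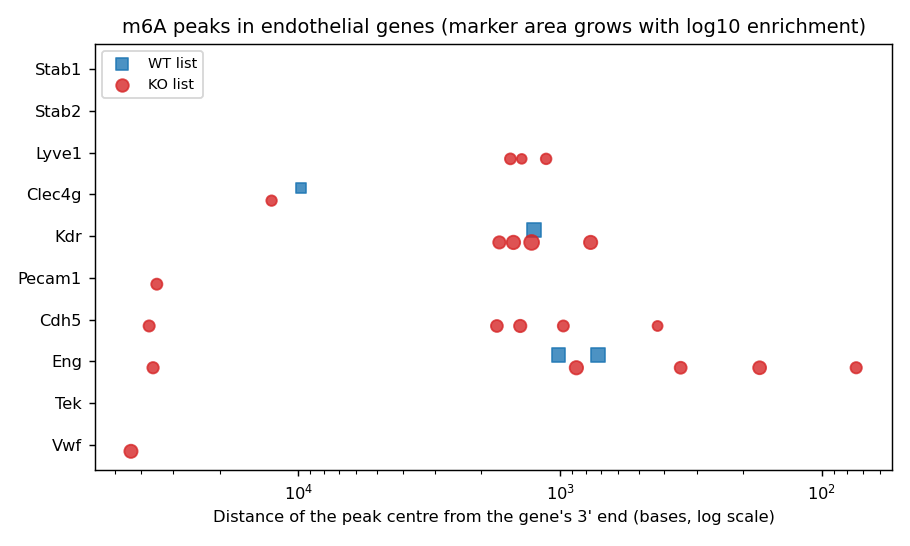
Distance of each m6A peak's centre from the 3' end of its gene (bases, log scale, end of the gene to the right) for the 10 endothelial genes; blue squares are peaks of the WT list, red circles those of the KO list, and the area grows with log10 enrichment. Of 20 KO peaks 15 and of 4 WT peaks 3 lie within 2000 bases of the gene end, and Stab1, Stab2 and Tek have none.

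Levels and peaks of the members can be set side by side. The 3 genes without a peak, Stab1, Stab2 and Tek, had log2 changes of 0.38, 0.04 and 0.20 in the authors' deposited table. Eng, Kdr and Clec4g, with peaks in both lists, stood there at 0.05, -0.25 and -0.54, the 2 peaks of Clec4g lying at different places. Cdh5, Lyve1, Pecam1 and Vwf, with peaks in the KO list alone, stood at 0.34, 1.70, 0.51 and 0.07 in the same authors' deposited table. With 10 genes and 1 list per genotype these are descriptions. Of the 42 further endothelial genes 5 had a peak in the WT list and 18 in the KO list.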

How the data were processed

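Input and m6A-precipitated liver RNA of WT and KO mice was sequenced, 2 libraries per genotype and library type. HISAT2 2.1.0, DESeq2 1.18.1 and mm10 are named in the submitters' processing notes; read counter, annotation and peak caller: not given in the sources used here. Per the file headers, the deposited table holds a mean signal (counts divided by size factors, over 4 libraries), a log2 fold change with its SE, the Wald statistic as a score, and the p-value and adjusted p-value of the authors, the last missing for 1876 genes. The deposited peak lists hold an enrichment, taken as a ratio of IP over input, and a p-value per peak, not stated to be adjusted.

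Each deposited mean carries enough digits to solve for the 4 whole counts behind it, given what 1 read adds in each library (size factors 1.25 and 1.18 in KO, 0.927 and 0.743 in WT). This gave counts for 15950 of 16133 genes. Above a mean of 100 the deposited fold change narrowed the search, and 181 genes above a mean of 10000 were left out. Each member had 1 solution, and its fold change refitted from it differed from the deposited one by at most 4.15e-06. All 14074 tested genes with recovered counts were fitted on log2(normalized count + 1) by limma 3.58.1, trend on; both steps were tested on simulated data. Intervals of 95% use the normal quantile and cover the deposited error only. Alternatives were other scalings, pseudocounts, thresholds, a filter and leaving out each library.

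The members and lists were chosen with earlier results of these data known. Named are all members, Mettl14, and from each other list and direction the 3 called genes with the smallest adjusted p, or, where none is called, the 2 with the highest mean; Alb, Gp1ba, Gp9, Ets1 and Hgf were named after their values were seen, and 1 called gene is not reported here. Gene positions and promoter sequences are from RefSeq (GRCm38.p6), by symbol; no genome was used here, so exon and UTR positions of peaks are not given.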

Additional observations from a re-analysis of the deposited data

How the results depend on the processing

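Of the members, 1 was called in the deposited comparison, and 0 at a deposited adjusted p under 0.01 or with at least a 2-fold change. In limma 2 were called (Lyve1 higher and Clec4g lower) at the authors' size factors, with a pseudocount of 0.5 or 5 and with a minimum mean count of 10. Of all 14074 genes limma called 3567 higher and 3371 lower at the authors' size factors. With a pseudocount of 0.5 these were 3514 and 3352, with 5 they were 3638 and 3411, and with the minimum 3364 and 3370 of 12664. With upper-quartile scaling limma also called 2 members, both higher (Stab1 and Lyve1), and not Clec4g (adjusted p = 0.0968). Of all 14074 genes it then called 4278 higher and 2734 lower. With total-count scaling limma called 8 members and 66.2% of all genes, and the median of the members was 0.95 instead of 0.13. Clec4g and Kdr turned to 0.27 and 0.54. Limma then called 78 genes in the other lists, against 37 at the authors' size factors. The deposited test called 46 of them, among these all 12 hepatocyte genes, of which 3 had recovered counts. That scaling moved the median of all genes to 0.87. Leaving out each library gave medians of the members from -0.0039 to 0.32. Without a KO library limma called 0 of 14074 genes (5064 and 5407 at an unadjusted p under 0.05), so these 2 fits say little. Over the 4 fits the log2 change ranged from -0.21 to 0.29 for Stab2, -0.20 to 0.34 for Eng (-0.038 without KO A), -0.61 to 0.051 for Kdr, -0.082 to 0.44 for Tek and -0.13 to 0.30 for Vwf, and the other 5 members kept their sign. The number of peaks was 3 in WT and 20 in KO at a p under 0.001, and 4 and 20 at an enrichment of at least 4; an overlap of a large part of the shorter peak changed no sharing. The cause of these differences was not tested. No paired analysis was possible because the deposited values cannot be tied to replicate numbers. Counts of 40 to 1581 reads per member and library limit the precision.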
